A study of Caenorhabditis elegans with 2 samples.

Results

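The 6 genes described here encode factors that carry the ribosome through elongation in Caenorhabditis elegans: eef-1A.1, eef-1A.2, eef-1G, eef-2, iff-1 and iff-2. They were chosen by name, from 19973 nuclear protein-coding genes, and each name matched 1 gene. For each gene, every ChIP-seq peak was taken whose summit, the position of the highest signal, lay in the gene body or up to 2000 bp upstream of the gene's 5' end. The samples were 2 biological replicates of whole L1 larvae, the first larval stage, of mixed sex and strain OP305. All animals carried the unc-119(ed3) mutation and the integrated transgene wgIs305, which expresses the nuclear hormone receptor NHR-11 fused to eGFP, and chromatin was precipitated for the tagged protein. There was 1 group, with no untagged strain and no second stage or genotype, and the labels do not give the transgene's copy number or its expression by tissue. Both replicates come from 1 strain, so their spread does not include differences between strains.

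Elongation adds amino acids to the growing chain in a cycle. The GTPase eEF1A brings aminoacyl-tRNA to the ribosome, the eEF1B complex, of which the product of eef-1G is the gamma subunit, recharges eEF1A with GTP, and eEF2 moves the ribosome along the mRNA after each peptide bond. The eIF5A proteins, encoded by iff-1 and iff-2, carry the modified amino acid hypusine and help the ribosome form difficult peptide bonds, so that they act in elongation despite their initiation factor name. In worms iff-1 is known for its role in germ cell proliferation, and iff-2 acts in the soma. The gene eef-1A.1, also called eft-3, is best known to worm researchers for its promoter, which is widely used to drive transgenes broadly in somatic tissues.

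The authors deposited candidate peaks for each replicate (30000 in each), for the pooled replicates (28727) and a set of 1141 pooled peaks that passed their irreproducible discovery rate (IDR) threshold, named called peaks here. Each peak has a signal value from the authors' peak caller, on a scale that no source used here states; rank 1 below is the strongest peak of its list. Called peaks had pooled signals of 49.9 or more, and the candidate lists ended at 13.6 in the pool, 8.49 in replicate 1 and 7.14 in replicate 2. A pooled signal was close to the sum of the replicate signals at these genes, so pooled and single-replicate values are on different scales. The lists hold no read counts, so the depth is unknown.

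A called peak was present at 5 of the 6 genes, where 6.7% of all protein-coding genes had one in the same window (1338 of 19973). The gene without one was iff-1. The window measured 3332 to 5422 bp for the 6 genes, with a median of 4027 bp over all protein-coding genes. Each of the 5 genes had exactly 1 called peak, with a summit between 384 bp upstream and 8 bp downstream of its 5' end, and no other pooled candidate in these windows exceeded 28.4. No test was made of these counts, since the genes were chosen with earlier results of these data known and there is 1 group.

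Short stretches near the summits are shown first, so that the paralogs can be compared. Each is 30 bases of the ce11 genome, read 5' to 3' on the strand of the gene. Capitals mark the words GAGAGA and ACGCA or ACGCAG, or their reverse complements, within the printed stretch. The stretches lie at III:6972058-6972087 for eef-1A.1 (minus strand), X:7823255-7823284 for eef-1A.2 (plus strand), II:8561408-8561437 for iff-2 (minus strand) and III:9747271-9747300 for iff-1 (minus strand). The stretches of eef-1A.2 and iff-2 contain the summit of the called peak, and that of eef-1A.1, centred on its nearest searched word, begins 7 bp from the summit. The iff-1 stretch surrounds the summit of its weak candidate in replicate 1. All 4 lie upstream of the annotated 5' ends, at 375 to 346 bp, 399 to 370 bp, 70 to 41 bp and 107 to 78 bp. No sequence is shown for eef-2 or eef-1G.
eef-1A.1: caacgagaggggGAGAGAtttttttgggcc
eef-1A.2: ttGAGAGAGAttACGCAaaatttcgaaact
iff-2: gttggttattgcCTGCGTagcgacccacac
iff-1: gagtacgcgctgagaaggattgttgtgaaa

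The translocation factor gene eef-2 (WBGene00001167, I 9163531 to 9166952, plus strand) had the highest signal of the 6 genes. Its called peak spanned I 9163409 to 9163617, with the summit at 9163520, 11 bp upstream of the 5' end. The signal was 122 in replicate 1, 126 in replicate 2 and 248 in the pool, with a replicate mean of 124 ± 2.92 (SD, n = 2). It ranked 49, 36 and 42 in the respective lists. Both replicates were thus high and close to each other, and their summits were 3 bp apart.

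The eIF5A gene iff-2 (WBGene00002065, II 8559375 to 8561367, minus strand) came next. Its called peak at II 8561318 to 8561512 had the summit at 8561422, 55 bp upstream of the 5' end. The signal was 90.7 in replicate 1, 118 in replicate 2 and 211 in the pool, a replicate mean of 104 ± 19.0 (SD, n = 2), with ranks of 105, 47 and 67. Replicate 2 was the higher of the replicates, and the summits were 12 bp apart. The capitals in the iff-2 stretch above lie at this summit.

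The eEF1A gene eef-1A.1 (WBGene00001168, III 6970026 to 6971712, minus strand) had its called peak at III 6972007 to 6972192. The summit, at 6972094, lay 382 bp upstream of the 5' end. The signal was 96.4 in replicate 1, 71.7 in replicate 2 and 170 in the pool, a replicate mean of 84.1 ± 17.5 (SD, n = 2), with ranks of 93, 160 and 116. Among the 5 genes with a called peak it was the only gene whose replicate 1 signal exceeded that of replicate 2, with a ratio of 1.34. The ratios of replicate 1 to replicate 2 at the others ran from 0.772 to 0.967. Over the 1137 called peaks matched in both replicates, the ratio had a median of 1.08 and ran from 0.542 to 2.15 between the 5th and 95th percentile, so all 5 genes lay within the usual range.

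The other eEF1A gene, eef-1A.2 (WBGene00001169, X 7823654 to 7825769, plus strand), had a called peak at X 7823085 to 7823454 with the summit at 7823270. This summit lay 384 bp upstream of the 5' end. The signal was 52.9 in replicate 1, 58.9 in replicate 2 and 105 in the pool, a replicate mean of 55.9 ± 4.27 (SD, n = 2), with ranks of 338, 238 and 298. The replicates were close in signal, with summits 37 bp apart.

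The gamma subunit gene eef-1G (WBGene00008920, V 10965719 to 10967922, plus strand) had the lowest called signal of the group. The peak spanned V 10965620 to 10965750, with its summit at 10965727, 8 bp downstream of the 5' end and inside the 5' UTR. The signal was 44.6 in replicate 1, 54.8 in replicate 2 and 99.0 in the pool, a replicate mean of 49.7 ± 7.20 (SD, n = 2), with ranks of 475, 281 and 351. The summit of replicate 1 lay 41 bp upstream of the 5' end and that of replicate 2 lay 2 bp downstream, a gap of 43 bp. Summit gaps between replicates over all matched called peaks had a median of 25 bp and quartiles of 9 and 47 bp.

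The eIF5A gene iff-1 (WBGene00002064, III 9745862 to 9747193, minus strand) had no called peak, no pooled candidate and no candidate in replicate 2. Among all protein-coding genes, 65.6% had a candidate summit in the pool, 68.4% in replicate 1 and 70.5% in replicate 2. Its single candidate, in replicate 1, had a signal of 10.9 and rank 18217 of 30000, with the summit at III 9747285, 92 bp upstream of the 5' end. Absence from a candidate list shows that no peak was listed there, not that the signal was 0.

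**Figure D1:**
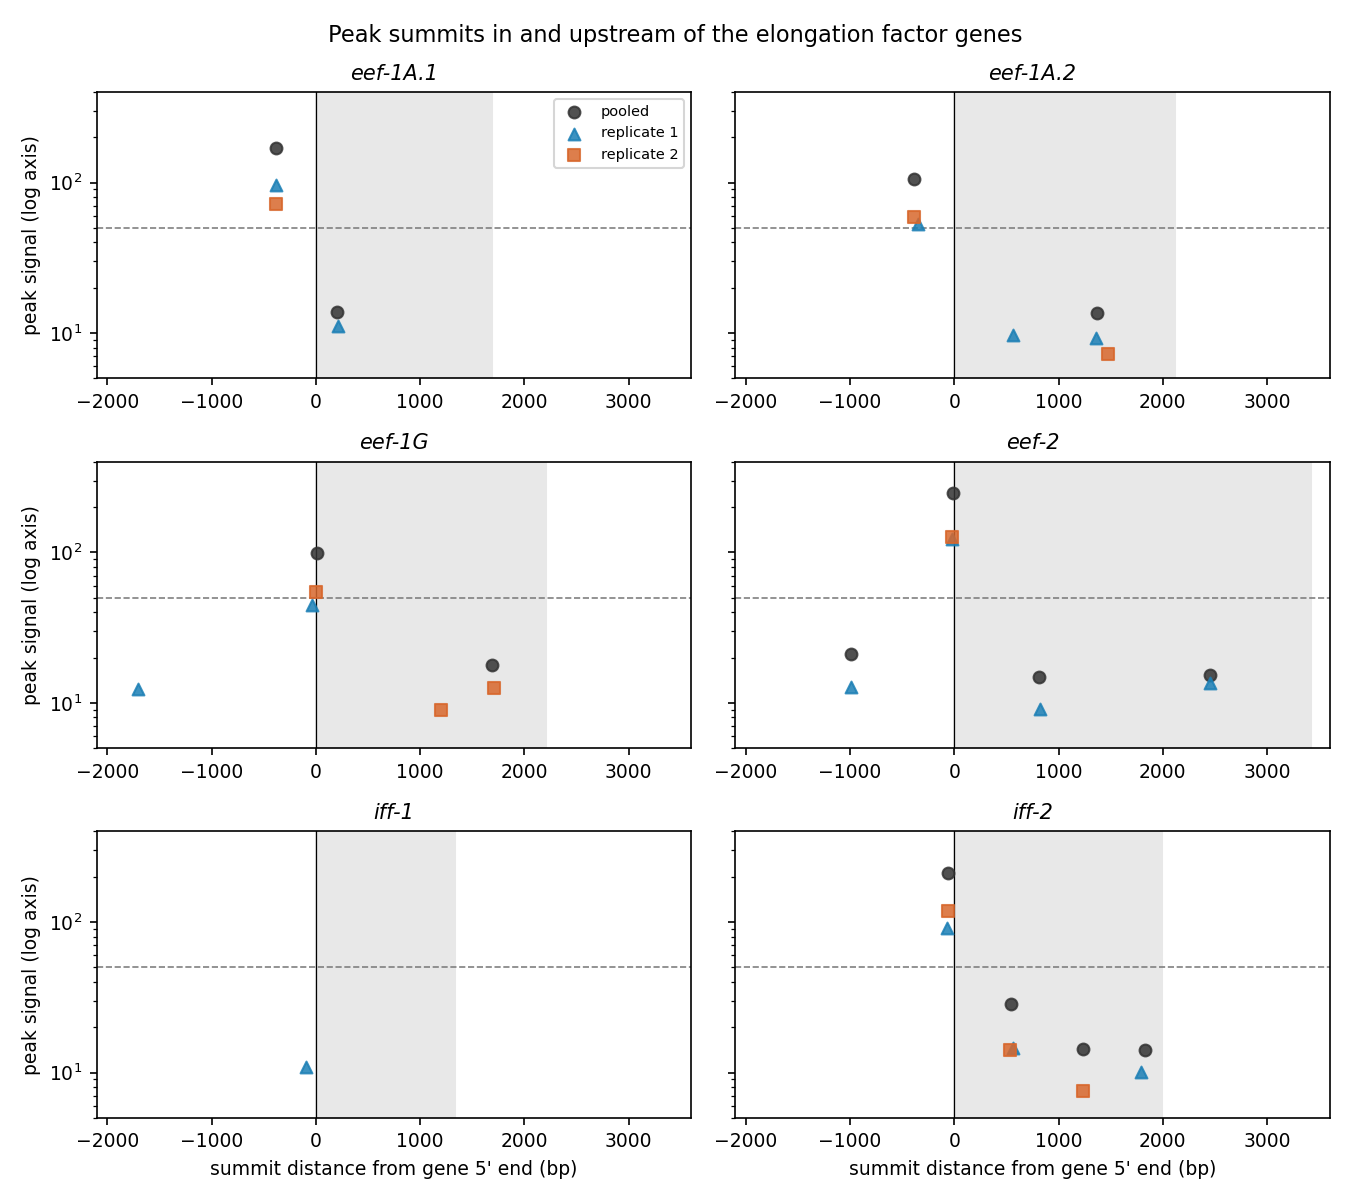
Peak signal (log axis) against distance of the summit from the gene's 5' end in bp, for all candidates of the pool (circles), replicate 1 (triangles) and replicate 2 (squares) in each of the 6 genes; shading is the gene body and the dashed line the lowest called pooled signal, 49.9, which applies to the circles only. The 5 called peaks stand between 384 bp upstream and 8 bp downstream of the 5' end, from 99.0 to 248, while every other pooled candidate is at 28.4 or lower, and iff-1 has 1 point.

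In order of pooled signal the genes ran eef-2, iff-2, eef-1A.1, eef-1A.2, eef-1G and iff-1. Among the 13102 protein-coding genes with a pooled candidate, ordered by the strongest candidate in each window, the first 5 of them ranked 47, 73, 143, 370 and 442. Neighbours in this order were often not separated in the replicates. The values of eef-2 were above those of iff-2 in both replicates, 122 against 90.7 and 126 against 118, but in replicate 2 by little. In replicate 1 eef-1A.1 was above iff-2, at 96.4 against 90.7, so these genes changed order between replicates. The signals of eef-1A.2 (52.9 and 58.9) and eef-1G (44.6 and 54.8) overlapped between replicates. The values of eef-2 and iff-2 in both replicates were above every value of eef-1A.2 and eef-1G.

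**Figure D2:**
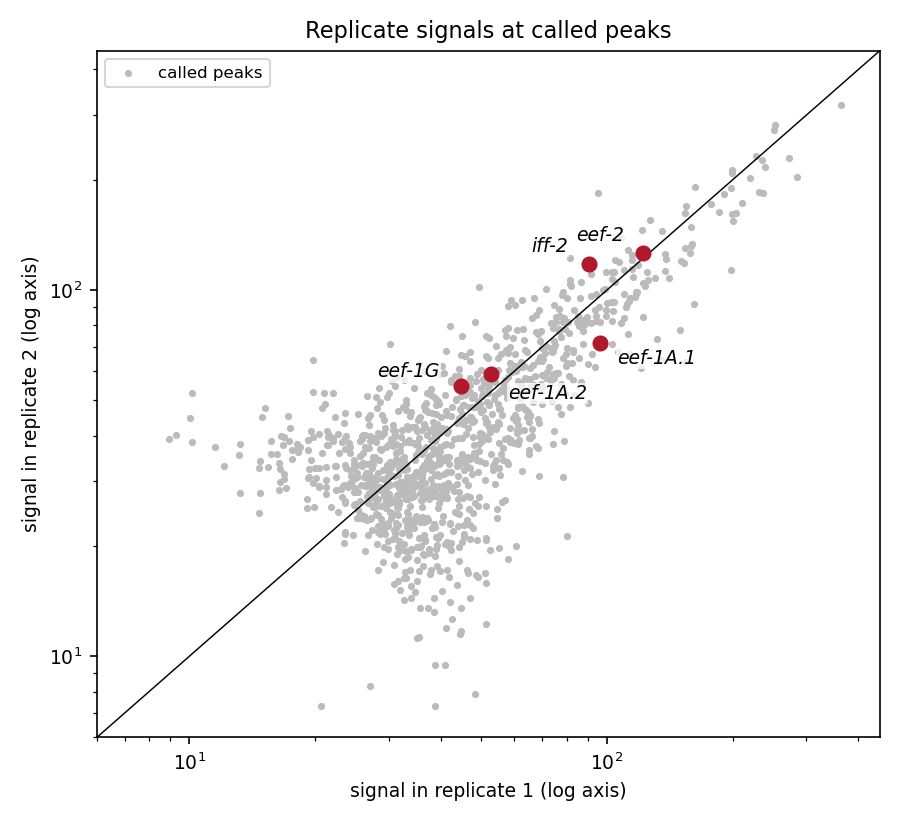
Signal in replicate 1 against signal in replicate 2 (both log axes) for the 1137 called peaks matched in both replicates (grey), with the called peaks of 5 elongation factor genes in red and the line of equal signal. The gene eef-2 lies near the line at 122 and 126, eef-1A.1 below it at 96.4 and 71.7, and iff-2 above it at 90.7 and 118.

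The eEF1A paralogs were both called, with pooled summits at nearly the same distance from their 5' ends, 382 and 384 bp, although the genes are on different chromosomes. In the replicates the distances for eef-1A.1 and eef-1A.2 were 380 and 345 bp (replicate 1) and 383 and 382 bp (replicate 2). Over the 1338 protein-coding genes with a called peak, the strongest called summit lay at a median of 268.5 bp upstream (quartiles 84.25 and 779.75 bp). The strongest signal of eef-1A.1 was 1.61 times that of eef-1A.2 in the pool, 1.82 times in replicate 1 and 1.22 times in replicate 2. All 3 ratios pointed the same way, and the values did not overlap between the genes, but with 2 replicates per gene an exact permutation test cannot reach a threshold of 0.05, and no test was made. The order rests on giving the peak upstream of eef-1A.1 to that gene: the peak is nearer to another gene, and when a summit was counted only for the gene with the nearest 5' end, eef-1A.1 kept a single candidate of 13.9 and the ratio turned to 0.132. Under that rule 4.22% of all protein-coding genes had a called peak, and so did 4 of the 6 genes.

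The coding sequences of the eEF1A genes are 94.0% identical over 1389 bases, which raises the question of whether reads could be placed. Within 185 bp of the summits, all stretches of 36 bases of the reference occurred once in the genome, for both genes. In the gene bodies 94.2% of such stretches in eef-1A.1 and 95.4% in eef-1A.2 occurred once, and 99.6% and 99.7% of stretches of 50 bases. No source used here states the read length. The called peaks therefore lie in sequence that is not shared by the paralogs, and a small part of the coding region is shared.

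The eIF5A paralogs differed more. The signal of iff-2 was 8.35 times that of iff-1 in replicate 1, where both had a candidate. In the pool and in replicate 2 iff-1 was not listed, and iff-2 stood 15.6 and 16.5 times above the lowest signal of the respective list. In a full-length alignment of the coding sequences of the pair, 380 of 585 columns were identical (65.0%), with 585 bases in iff-1 and 483 in iff-2. Columns with a gap are counted, so the difference in length lowers this value. It is not directly comparable with that of the eEF1A genes, whose coding sequences are equal in length. All stretches of 36 bases were unique in the genome in both gene bodies and around both summits. The GC content within 50 bp of the summit was 57.4% for iff-2 and 36.6% at the replicate 1 summit of iff-1, where the median was 45.5% for all called and 33.7% for all pooled candidates. At the other called genes it was 45.5% to 48.5%.

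**Figure D3:**
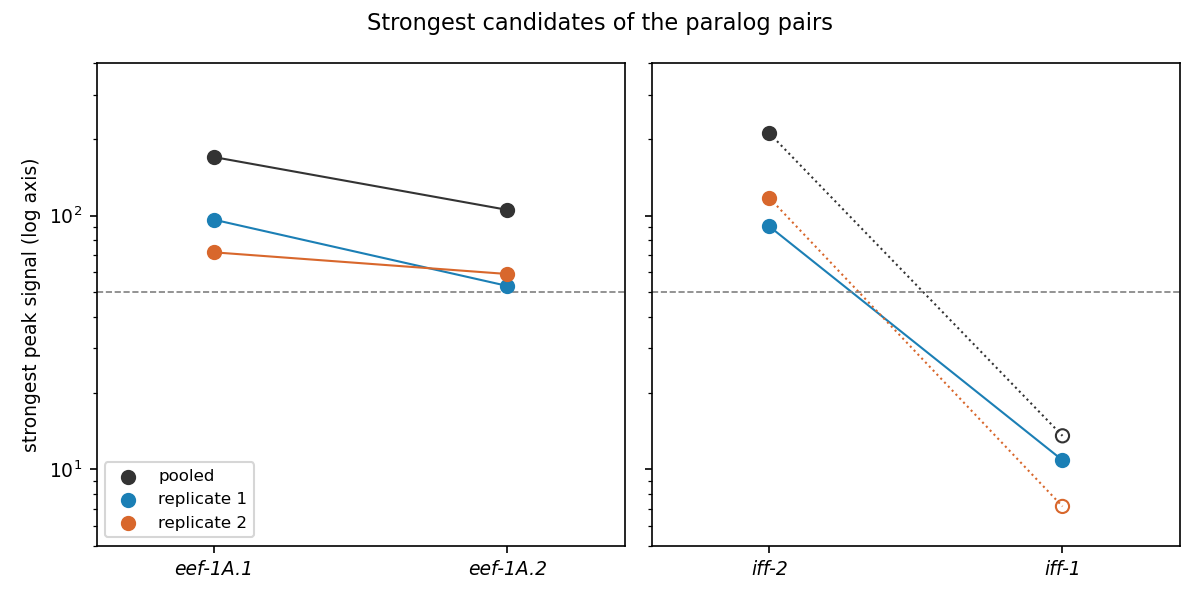
Strongest peak signal (log axis) of each paralog in the pool and in replicates 1 and 2, with lines joining the values of 1 list; open circles with dotted lines mark lists without an iff-1 candidate, drawn at the lowest signal of that list, and the dashed line is the lowest called pooled signal, 49.9. The eEF1A genes differ by 1.22 to 1.82 times, and iff-2 stands 8.35 times above iff-1 in replicate 1.

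Most of these genes have a gene on the opposite strand that starts close upstream. A divergent protein-coding 5' end lay within 1000 bp upstream for 5 of the 6 genes, against 17.7% of all protein-coding genes. The summit upstream of eef-1A.1 lay 159 bp from the 5' end of rfc-4, a subunit gene of the replication factor C clamp loader, and 541 bp separate the 5' ends of the genes. It also lay 1888 bp upstream of F31E3.2 and 9 bp upstream of the annotated microRNA gene cel-mir-5549. That microRNA gene (III 6971976 to 6972085, minus strand) covers most of the stretch printed for eef-1A.1, including its GAGAGA. The eef-2 summit lay 254 bp from the 5' end of clsp-1, a claspin gene of the replication checkpoint. The eef-1G summit lay 188 bp from that of ctf-4, a replisome factor gene. The iff-2 summit lay 880 bp from the 5' end of F54C9.14, and the weak iff-1 candidate lay 187 bp from that of cdk-1, the mitotic cyclin-dependent kinase gene. At eef-2, eef-1G, iff-2 and iff-1 the summit was nearer to the 5' end of the elongation factor gene. No divergent protein-coding 5' end lay within 1000 bp upstream of eef-1A.2. Peak lists cannot assign a summit between divergent genes to either of them, and many worm transcripts are trans-spliced, so an annotated 5' end can differ from the place where transcription starts.

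Apart from the eef-1G summit in the 5' UTR, the gene bodies held no called summit, although the called peaks of eef-2 and iff-2 reached past the 5' end into the gene. The 6 windows held 14 pooled candidates, of which 5 were called and 9 were not, with 15 candidates in replicate 1 and 10 in replicate 2. The 9 ranged from 13.6 to 28.4 in pooled signal, and 8 of them lay in gene bodies. Of these 9, 3 overlapped a candidate in both replicates, 4 in replicate 1 only and 2 in replicate 2 only. An overlap of 1 bp was enough, so the summits could lie apart. For example, the iff-2 candidate with summit II 8559536 overlapped a replicate 2 candidate with summit 8559312, outside the window. At eef-1A.2 the summits were X 7825026 in the pool and 7825131 in replicate 2. The strongest of the 9 had its summit in a coding exon of iff-2, 540 bp downstream of the outermost 5' end. Its signal was 28.4 in the pool (rank 4034), 14.6 in replicate 1 and 14.0 in replicate 2. This candidate, at II 8560642 to 8561011, also covers the small nucleolar RNA gene F54C9.12 (II 8560691 to 8560772, minus strand). Next in signal was the candidate 985 bp upstream of eef-2, with 21.2 in the pool and 12.7 in replicate 1 and none in replicate 2. The uncalled candidate of eef-1G, 17.8 in the pool, spanned V 10967219 to 10967588. It overlapped the small nucleolar RNA gene F17C11.14 (V 10967490 to 10967616, plus strand). The called peak exceeded the next candidate of its own gene 12.3 times at eef-1A.1, 11.7 times at eef-2, 7.75 times at eef-1A.2, 7.46 times at iff-2 and 5.55 times at eef-1G.

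Words searched within 50 bp of the 5 called summits, on both strands, were few. GAGAGA was present at both eEF1A genes, centred 21.5 bp from the eef-1A.1 summit and 8.5 bp from that of eef-1A.2, where overlapping copies form the longer run of capitals above. It was present in 30.6% of all called windows and 8.35% of pooled candidate windows. The word GACGCA, present in 19.6% of called windows, was found at none of the 5 summits. Neither was the E-box CACGTG (5.61% of called windows). The nuclear receptor half-site AGGTCA (2.45% of called windows) and its variants AGTGCA (6.13%) and also AAGTCA (3.07%) were absent from these 5 windows as well. TTTTCAG was found only at eef-1G, centred 5 bp from the summit, and in 2.80% of called and 10.4% of pooled windows. The word ACGCAG, added after the stretches above were seen, was at the summits of iff-2 and eef-1G, with its centre 0.5 and 3.5 bp away, and in 19.3% of called and 3.43% of pooled windows. Its first 5 letters, ACGCA, also added only after the stretches were seen, were found at eef-1A.2, 1 bp from the summit, and at eef-2, 45 bp away. With iff-2 and eef-1G, 4 of 5 windows held ACGCA, against 32.9% of called and 9.24% of pooled windows. Because ACGCA was picked from these same genes, that difference is no evidence about them. A match is only a match of letters.

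Another 15 cytosolic genes were listed by symbol for elongation, ribosome-associated ATPases, ribosome rescue, termination and factor modification. Of these 15, 6 had no pooled candidate, and 3 had a called peak (20%, beside the background of 6.7%). They were eef-1B.1, a subunit gene of the eEF1B exchange complex, with 68.5 in the pool, 48.5 in replicate 1 and 16.7 in replicate 2; abcf-2, with 84.2; and abcf-3, with 51.4. The eef-1B.1 summit lay 23 bp upstream of its 5' end. The abcf-2 summit lay 855 bp upstream, and 70 bp from the 5' end of ant-1.1, an adenine nucleotide translocator gene. The second eEF1B gene listed, eef-1B.2, had no pooled candidate, as was the case for iff-1. In a full-length alignment of the coding sequences of eef-1B.1 and eef-1B.2, with 639 and 1320 bases, 448 of 1321 columns were identical (33.9%). Columns with a gap are counted in the 1321, so the difference in length lowers this value. The eEF2 kinase gene efk-1, at 28.5, and the hypusine synthesis genes dhps-1, at 21.9, and dohh-1, at 16.8, had uncalled candidates. The termination factor genes erfa-1 and erfa-3 had none. The listed gene sup-35 (27.6, uncalled) is counted among the 15 but is not the worm counterpart of the yeast termination factor of that name.

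No called peak lay at the 4 mitochondrial elongation factor genes matched, where the highest candidates were 27.5 at tufm-1 and 25.6 at tufm-2, both genes for the mitochondrial counterpart of eEF1A, and gfm-1 and tsfm-1 had none. Of 80 cytosolic ribosomal protein genes, 43 were called (53.8%), and of 32 initiation factor genes 3 were called (9.38%), eif-3.C at 208, eif-3.B at 118 and eif-2Bgamma at 53.1. Some called ribosomal summits lay nearer to another gene's 5' end, such as that of rps-16, 1803 bp upstream and 121 bp from fib-1. Some peaks were counted for more than 1 ribosomal gene, such as the peak of rpl-39 and rps-30. The 5 called elongation factor genes spanned 99.0 to 248 and the called ribosomal protein genes had a median of 91.7, with rpl-3 highest at 536. These are counts of lists of unequal size, described without a test, beside the background of 6.7%.

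**Figure D4:**
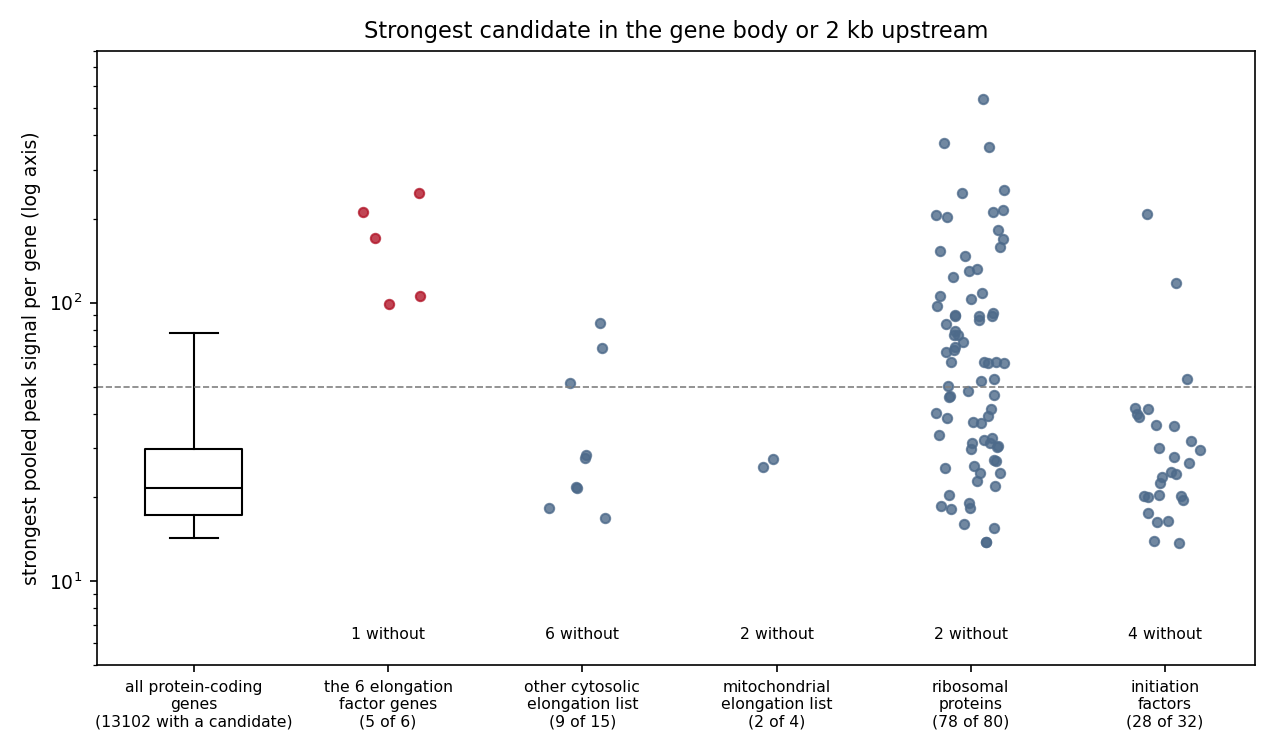
Strongest pooled candidate signal (log axis) per gene for the 6 elongation factor genes, the other cytosolic and mitochondrial lists, ribosomal protein genes and initiation factor genes; the box shows the median and quartiles of all 13102 protein-coding genes with a candidate and its whiskers the 5th and 95th percentiles, genes without a candidate are counted at the bottom, and the dashed line is at 49.9. The 5 elongation factor genes with a candidate all lie above the line, and 3 of 32 initiation factor genes do.

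The genes whose called peaks were most alike in signal were found by the sum of absolute log2 differences in pooled, replicate 1 and replicate 2 signal, over 1334 genes with a called peak matched in both replicates. They were epn-1, an epsin gene, for eef-2 (sum 0.07), ztf-7 for iff-2 (0.23), wve-1, a WAVE complex gene, for eef-1A.1 (0.16), F17E5.2 for eef-1A.2 (0.12) and F26F2.7 for eef-1G (0.07). The ztf-7 peak is shared with lipl-2 and the wve-1 peak with R06C1.4, so these genes tie in the measure. The signals of epn-1 were 121 in replicate 1 and 123 in replicate 2, those nearest to the 122 and 126 of eef-2. The measure rests on 2 replicates and on their pool, which is made from them.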

How the data were processed

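Peak lists in narrowPeak format on ce11 were analysed, and the 4 lists on ce10 were not used. Per the deposited notes, the authors derived the candidate lists from alignments and a control, and the IDR list from the candidates of both replicates and their pool; no source used here names the aligner or the peak caller. The signal of each peak is the authors' own deposited value. Summit offsets were read from the same deposited lists, and no other measure was used. Gene models were those of Ensembl release 115 (WBcel235, identical to ce11), and sequence was read from the RefSeq genome of the same build, within whose chromosome lengths all peaks lay. Replicate candidates were matched to pooled peaks by an overlap of 1 bp or more, taking the nearest summit. Stretches of 36 and 50 bases were counted on both strands of the genome. Summit assignment was tested on simulated peaks. The members, gene lists and words were chosen with earlier results of these data known; named genes were the 6 members, genes that share a called summit with a member, called genes of the elongation and initiation lists, and the gene most alike in signal to each called member, and other genes were named after their values were seen. Of the listed symbols, etf-1, gfm-2, guf-1 and lepd-1 matched no gene. No test was made. Alternatives changed the window, the assignment, the called set and the replicate used. Python 3.11.15 was used with numpy 2.4.6, pandas 2.3.3, Biopython 1.88 and matplotlib 3.10.9.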

Additional observations from a re-analysis of the deposited data

How the results depend on the processing

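For the alternatives with a single replicate, its 1141 strongest candidates stood in for the called set, with no IDR threshold. With that stand-in, the number of genes with a called peak stayed at 5 under every alternative but the nearest 5' end, where eef-1A.1 dropped out and 4 remained. Under that alternative the strongest candidate of eef-1A.1 was 13.9, the ratio of eef-1A.1 to eef-1A.2 turned to 0.132, and 4.22% of all protein-coding genes had a called peak. With only the 571 stronger called peaks that share was 3.58%, and all 5 genes stayed called. With 5000 bp upstream, iff-1 gained an uncalled pooled candidate of 28.9 and the ratio of iff-2 to iff-1 was 7.33. In replicate 1 alone that ratio was 8.35; in replicate 2 iff-1 was not listed, and iff-2 was 16.5 times the lowest signal of the list. Single replicates gave ratios of 1.22 to 1.82 for the eEF1A pair. Signals of single replicates are on another scale than the pool: 122 to 126 at eef-2, 90.7 to 118 at iff-2, 71.7 to 96.4 at eef-1A.1, 52.9 to 58.9 at eef-1A.2 and 44.6 to 54.8 at eef-1G. Windows of 1000 bp upstream or of the promoter alone and assignment by overlap moved none of these signals. Of 80 recomputed values, 64 stayed within the replicate spread or, for counts, within 1.5 times, 15 moved beyond that and 1 reversed. Some of the 64 could not change, since keeping only the stronger called peaks alters the calls but no signal or ratio. For signals the spread was that of single replicates, on another scale than the pool. The count of 64 is therefore not a measure of stability. Depth is unknown, so no counting error can be given, and without an untagged strain the signal of the tag alone was not measured.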
